A study of Mus musculus with 200 samples.

Results

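Apolipoproteins are the protein shells of the particles that carry fat and cholesterol in blood, and most are made by hepatocytes of the liver and enterocytes of the gut. The 10 genes described here, Apoa1, Apoc3, Apoa4, Apoa5, Apoa2, Apob, Apoc1, Apoc2, Apoe and Apoh, were chosen by name and are 10 of the 38406 genes in the count table. Of these, 9 had a count in at least 1 library, and Apoa5 had 0 counts in all 200. They were counted in 200 libraries, each labelled as 1 medullary thymic epithelial cell (MEC), a cell of the thymus that shows proteins of other organs to developing T cells. Aire, a nuclear regulator, is known to let these cells transcribe many genes that are otherwise restricted to single tissues, and proteins of liver and gut are known to be among their products.

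All cells came from thymi of female mice aged 5 weeks, of the mixed strain B6xNOD, and all mice, the controls included, carried the Aire-GFP transgene, whose green fluorescent protein (GFP) marks cells that express Aire. Live cells were sorted by flow cytometry as CD45-, Ly51-, MHCII+ and GFP+, from Aire knockout (KO) or Aire wild-type (WT) mice and with high (GFPhi) or low (GFPlo) fluorescence. There were 48 KO GFPhi, 61 WT GFPhi, 52 KO GFPlo and 39 WT GFPlo libraries, with summed counts of 3011900, 3468109, 1847240 and 2260672 and a range of 2429 to 370365 counts per library. The sort took place on 2 dates, with 9, 23, 22 and 18 libraries of these groups on the first and 39, 38, 30 and 21 on the second. Because no animal is named in the labels, a group counts here as 1 sample and no test or p-value is given. Animal and genotype cannot be told apart. Levels are counts per 1000000 of a group's sum (CPM), and brackets hold 95% intervals that cover counting error only. Whether identifiers of molecules were collapsed before deposit is not given in the sources used here. Counts are read as sequenced tags, and if they are, the intervals are too narrow.

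The sort was checked on markers. All 14 markers of medullary epithelium had counts, and together they made up 11925 CPM in KO GFPhi, 8555 in WT GFPhi, 8961 in KO GFPlo and 8268 in WT GFPlo libraries. Aire transcript was 815 CPM in KO GFPhi and 537 in WT GFPhi, and 316 in KO GFPlo and 244 in WT GFPlo libraries. The deleted stretch of Aire is not named in the labels, so its counts do not check the genotype. Libraries with more leukocyte than epithelial marker counts numbered 7 of KO GFPhi, 18 of WT GFPhi, 22 of KO GFPlo and 6 of WT GFPlo. These 53 were 26.5% of all libraries. They made up 4 of the 28 libraries with Apoc3 (14.3%) and 8 of the 43 with Apoa4 (18.6%), 7 of the 18 with Apoc1 (38.9%) and 14 of the 63 with Apoe (22.2%).

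The libraries were not independent of each other. Each was marked by 1 of 30 primers and belonged to 1 of 12 pools, and every primer was used in 1 group alone. Among 8621 rare genes, those found in 2 to 20 libraries, a pair of libraries with the same primer and date shared a median of 34.9% of the rare genes of the shallower one (313 pairs). Pairs with different primers on the same date shared 6.64% within a group (2449 pairs) and 6.15% between groups (7890 pairs), and pairs with the same primer on different dates shared 8.97% (301 pairs). For 176 of the 200 libraries the closest other library had the same primer. For 14 others it was the other of primers ls_5 and ls_12, and for 10 it was a library of some other primer. Primer ls_12, of KO GFPlo, and primer ls_5, of WT GFPhi, shared a median of 73.7% of rare genes within a pool (7 pairs). Of the rare genes with at least 3 counts in both libraries of a pair, the share with equal counts ran from 4 of 24 in pool 6 to 32 of 36 in pool 8. What made libraries share genes was not tested. Counts were therefore also summed over the 54 sets of 1 primer and 1 date, of which 11 were KO GFPhi, 16 WT GFPhi, 15 KO GFPlo and 12 WT GFPlo.

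**Figure D1:**
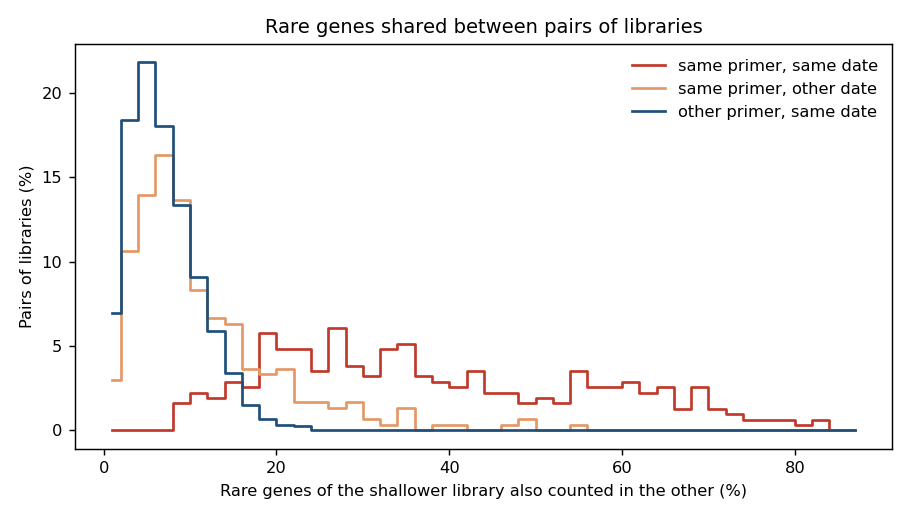
For every pair of libraries, the x axis gives the percentage of the shallower library's rare genes that the other also counted, and the y axis the percentage of pairs in each 2-point bin. Pairs with the same primer and date (red) lie far to the right, with a median of 34.9%, of pairs with another primer on the same date (blue), most of which lie under 14.6%.

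The genes lie in 2 clusters and 3 single places. On chromosome 9 of GRCm38, Apoa1 (46228580 to 46230466, plus strand), Apoc3 (46232933 to 46235636, minus), Apoa4 (46240696 to 46243459, plus) and Apoa5 (46268633 to 46271919, plus) form the first. On chromosome 7, Apoc2 (19671579 to 19677941), Apoc1 (19689481 to 19692660) and Apoe (19696109 to 19699188), all on the minus strand, form the second. Apoa2 (171225054 to 171226379) is on chromosome 1, Apob (7977648 to 8016835) on chromosome 12 and Apoh (108343354 to 108414396) on chromosome 11, all on the plus strand. No start site was at hand for Apoc3 and Apoc1, and the bases before those of Apoa4, Apoc2 and Apoh lay within annotated genes. Of the rest, Apoa1 was counted in 4 libraries, Apoa5 in none, Apoa2 in WT libraries alone and Apoe more in KO than in WT libraries. The bases upstream of these 4 start sites are printed. They are from RefSeq on GRCm38.p6 and run 5′ to 3′ on the gene's strand, at chr9:46228380-46228579 (plus), chr9:46268383-46268632 (plus), chr1:171224804-171225053 (plus) and chr7:19699189-19699438 (minus). The Apoa1 stretch ends 50 bases short of the RefSeq start, where the annotated gene begins. Capitals mark TATAAA, the letters of the TATA box motif, and whether a marked stretch acts as a TATA box was not tested.
Apoa1: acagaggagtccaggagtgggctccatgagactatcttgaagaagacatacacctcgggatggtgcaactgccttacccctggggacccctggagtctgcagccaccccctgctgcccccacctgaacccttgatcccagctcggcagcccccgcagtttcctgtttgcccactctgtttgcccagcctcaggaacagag
Apoa5: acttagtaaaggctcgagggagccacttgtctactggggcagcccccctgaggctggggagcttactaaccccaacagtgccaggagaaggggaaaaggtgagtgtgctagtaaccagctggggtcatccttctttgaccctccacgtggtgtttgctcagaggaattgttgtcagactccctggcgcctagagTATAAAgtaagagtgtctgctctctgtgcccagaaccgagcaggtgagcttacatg
Apoa2: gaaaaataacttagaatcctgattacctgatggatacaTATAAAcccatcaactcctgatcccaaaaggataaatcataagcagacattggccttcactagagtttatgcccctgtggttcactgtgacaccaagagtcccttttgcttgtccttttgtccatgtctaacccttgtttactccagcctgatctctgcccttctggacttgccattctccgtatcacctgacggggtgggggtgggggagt
Apoe: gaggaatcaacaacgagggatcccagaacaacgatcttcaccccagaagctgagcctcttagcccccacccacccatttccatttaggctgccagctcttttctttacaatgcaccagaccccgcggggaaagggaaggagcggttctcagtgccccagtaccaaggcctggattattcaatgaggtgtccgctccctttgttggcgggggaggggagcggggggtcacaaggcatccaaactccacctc

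RefSeq start sites were at hand for 8 of the 10 genes, not for Apoc3 and Apoc1. TATAAA, searched on both strands in the 250 bases before the start, was found for 3 of the 8, Apoa5 (56 bases before the start), Apoa2 (212) and Apob (60), and in 12.97% of 27025 promoters. AGGTCA, a motif that nuclear receptors bind, was found for 2, Apoc2 and Apoh, and in 13.8% of promoters, and AAAGTCC, the core of an HNF4A site, for 0 and in 3.65%. The Apoa5 window holds TATAAA, and the Apoe window holds none of these 3 motifs. Whether the motifs bear on the counts was not tested.

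The apolipoproteins of the chromosome 9 cluster ride on high density and triglyceride-rich lipoproteins, and 2 of them, Apoc3 and Apoa4, made up most of the counts. No member was counted in more than 38.5% of the libraries of a group, so the lowest and the median library of every group had 0 counts of each. In a summed level, fewer cells with a transcript and less RNA per cell cannot be told apart. Apoc3, an inhibitor of triglyceride breakdown by lipoprotein lipase, had 8 counts in KO GFPhi and 1057 in WT GFPhi libraries, and 55 in KO GFPlo and 12 in WT GFPlo libraries. As levels these are 2.66 CPM (1.15 to 5.23) in KO GFPhi against 305 (287 to 324) in WT GFPhi, and 29.8 (22.4 to 38.8) in KO GFPlo against 5.31 (2.74 to 9.27) in WT GFPlo. Apoc3 was thus far lower in KO than in WT GFPhi libraries, with a ratio of 0.00872 (0.00375 to 0.0172), and higher in KO than in WT GFPlo libraries, with a ratio of 5.61 (2.97 to 11.5). On the first and second date the ratio was 0.0153 (0.00558 to 0.0334) and 0.00411 (0.000496 to 0.0149) in GFPhi, and 1.93 (0.490 to 7.98) and 7.02 (3.16 to 18.4) in GFPlo. The counts sat in few libraries: it was found in 3 of 48 KO GFPhi libraries with a highest of 4, in 13 of 61 WT GFPhi libraries with a median of 8 and a highest of 476, in 7 of 52 KO GFPlo libraries with a highest of 27, and in 5 of 39 WT GFPlo libraries with a highest of 4. By set of libraries the picture was less one-sided. Sets with a count numbered 3 of 11 in KO GFPhi and 5 of 16 in WT GFPhi, and 5 of 15 in KO GFPlo and 3 of 12 in WT GFPlo. Sets ls_6 of the second date, with 495 counts, and ls_14 of the first date, with 493, both WT GFPhi, held 87.3% of all Apoc3 counts. The high value in KO GFPlo came from set ls_4 of the second date, with 49 counts of 55. Without that set the GFPlo ratio was 0.643 (0.198 to 1.85), so its direction turned. Without set ls_6 of the second date the GFPhi ratio was 0.0154 (0.00662 to 0.0306), with set ls_14 of the first date still included. The GFPhi ratio was not computed without both sets.

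Apoa4, which enterocytes release with chylomicrons, had 9 counts in KO GFPhi and 1079 in WT GFPhi libraries, and 13 in KO GFPlo and 69 in WT GFPlo libraries. Its level was 2.99 CPM (1.37 to 5.67) in KO GFPhi against 311 (293 to 330) in WT GFPhi, and 7.04 (3.75 to 12.03) in KO GFPlo against 30.5 (23.7 to 38.6) in WT GFPlo. Unlike Apoc3 it was lower in KO in both gates, with a ratio of 0.00960 (0.00438 to 0.0183) in GFPhi and 0.231 (0.117 to 0.421) in GFPlo. By date, the GFPlo ratio was 0.0365 (0.000903 to 0.214) on the first and 0.481 (0.220 to 0.994) on the second. Libraries with a count numbered 4 of 48 in KO GFPhi and 22 of 61 in WT GFPhi, and 5 of 52 in KO GFPlo and 12 of 39 in WT GFPlo. A single WT GFPhi library of primer ls_6 held 848 counts, 72.5% of all, and the next highest library held 63. Without set ls_6 of the second date the GFPhi ratio was 0.0518 (0.0233 to 0.1005). Without set ls_12 of the second date, which held 11 of the 13 KO counts, the GFPlo ratio was 0.0396 (0.00471 to 0.149). Apoa4 was also the member counted in most WT sets, with a count in 3 of 11 KO GFPhi sets and 10 of 16 WT GFPhi sets, and in 3 of 15 KO GFPlo sets and 7 of 12 WT GFPlo sets. An antisense gene, Gm10680, overlaps the end of Apoa4 and had 7 counts, all in WT GFPhi libraries. Gm47528 also overlaps Apoa4, Gm47544 Apoa5 and Gm44805 Apoc2, and these have no row in the table. Whether counting used strand is not given in the sources used here, so reads of overlapping genes may be mixed.

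**Figure D2:**
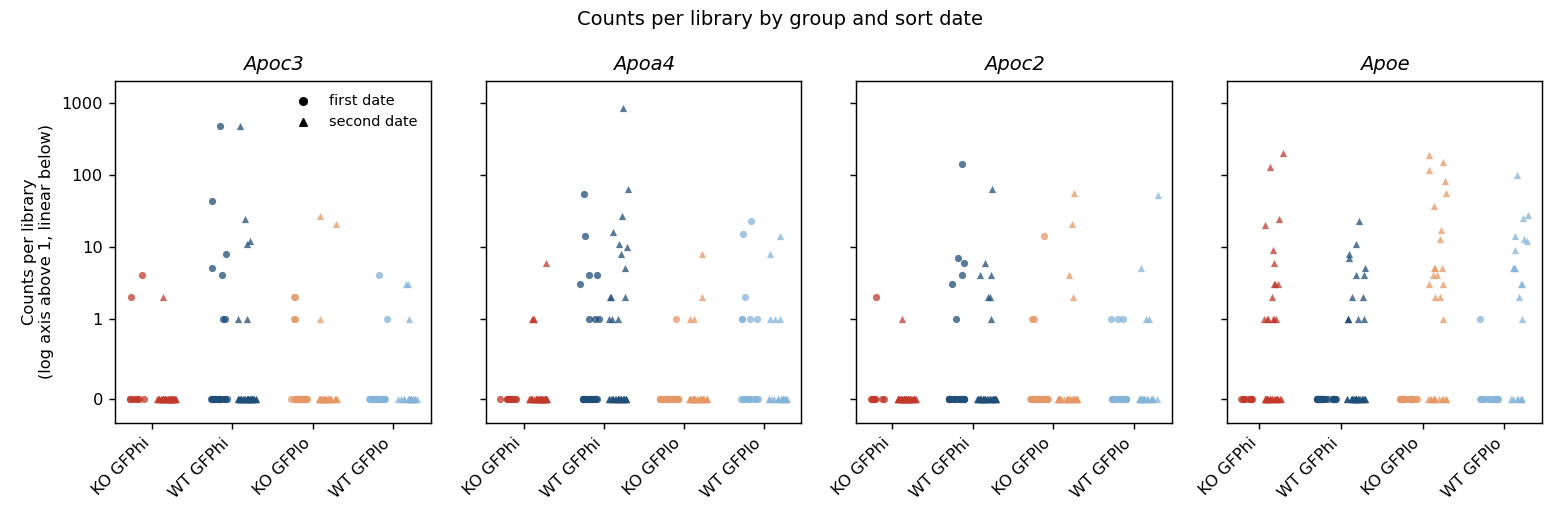
Each point is 1 library, placed by group and sort date (circles first, triangles second), and the y axis gives its counts of Apoc3, Apoa4, Apoc2 or Apoe, on a log axis above 1 and a linear one below. Most libraries are at 0, the WT GFPhi libraries reach 476 for Apoc3 and 848 for Apoa4, and Apoe has nearly all its points on the second date.

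Apoa1, the main protein of high density lipoprotein, had 28 counts in 4 libraries. It had 0 counts in KO GFPhi and 14 in WT GFPhi, and 14 in KO GFPlo and 0 in WT GFPlo libraries. These were primers ls_12 and ls_5 in pools 11 and 12, with 4 counts in the KO GFPlo and 4 in the WT GFPhi library of pool 11 and 10 in each of pool 12. The same pairs had equal counts of Apoc2, 2 and 2 in pool 11 and 4 and 4 in pool 12, and in pool 8 equal counts of Apoa4, 8 and 8. Apoe counts were unequal, with 37 in the KO GFPlo and 1 in the WT GFPhi library of pool 11 and 55 and 2 in those of pool 12. Which of the 2 groups the Apoa1 counts belong to cannot be told apart, and without the 2 primers Apoa1 had 0 counts everywhere. Apoa5, which promotes triglyceride breakdown, had 0 of 10587921 counts, which allows a level of up to 0.283 CPM at 3 counts.

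Summed over the 4 cluster genes, KO GFPhi libraries had 17 counts, or 5.64 CPM (3.29 to 9.04), and WT GFPhi libraries 2150, or 619.9 CPM (594 to 647), a ratio of 0.00910 (0.00529 to 0.0146). Without the library with most counts the ratio was 0.0230, and without set ls_6 of the second date 0.0241. It was not computed with set ls_14 of the first date left out as well. In GFPlo the sums were 82 in KO and 81 in WT libraries, 44.4 and 35.8 CPM, a ratio of 1.24 (0.900 to 1.71), which was 0.229 (0.0876 to 0.509) on the first date and 2.35 (1.53 to 3.68) on the second. It was 0.524 without set ls_4 of the second date, 0.998 without primers ls_5 and ls_12 and 0.860 with 1 library per set, so no direction can be given for GFPlo. Between gates, the sum was higher in GFPhi than in GFPlo of WT libraries, with a ratio of 17.3 (13.9 to 21.9), and lower in GFPhi than in GFPlo of KO libraries, with a ratio of 0.127 (0.0707 to 0.216). The WT ratio was 6.54 without set ls_6 of the second date. The KO ratio was 0.682 (0.189 to 2.37) on the first date. Of the 82 KO GFPlo counts, set ls_4 of the second date held 49. Set ls_12 of the second date held another 14 of Apoa1 and 11 of Apoa4. The KO ratio thus rests on these sets, and it was not computed without both.

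A count of at least 1 cluster gene was found in 6 of 48 KO GFPhi libraries, 12.5% (4.73 to 25.2), and in 27 of 61 WT GFPhi libraries, 44.3% (31.5 to 57.6). In GFPlo it was found in 13 of 52 KO libraries, 25% (14.03 to 38.9), and in 15 of 39 WT libraries, 38.5% (23.4 to 55.4). The difference in GFPhi was -31.8 percentage points. The intervals count each library as independent, which libraries of 1 primer and date were not. After each library was thinned to 13382 counts, which left out 8 KO GFPhi, 13 WT GFPhi, 9 KO GFPlo and 10 WT GFPlo libraries, the shares were 7.5% and 37.5% in KO and WT GFPhi, and 25.6% and 27.6% in KO and WT GFPlo. By set, 5 of 11 KO GFPhi and 10 of 16 WT GFPhi sets had a cluster gene, 45.5% (16.7 to 76.6) and 62.5% (35.4 to 84.8), intervals that overlap, and a difference of -17.0 points. Sets with at least 10 cluster counts numbered 0 of 11 in KO GFPhi and 6 of 16 in WT GFPhi, and 2 of 15 in KO GFPlo and 3 of 12 in WT GFPlo.

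Co-detection within the cluster was sparse. Of the 200 libraries 139 had none of the 4 genes, 47 had 1, 14 had 2 and 0 had 3. The 14 comprised 1 KO GFPhi, 10 WT GFPhi, 1 KO GFPlo and 2 WT GFPlo libraries, 12 of them with Apoc3 and Apoa4 and 2 with Apoa1 and Apoa4. The latter 2 were the ls_12 (KO GFPlo) and ls_5 (WT GFPhi) libraries of pool 12, with equal counts of both genes. The group of the only KO GFPlo co-detection thus cannot be told apart. Apoa4 was counted in 42.9% of the 28 libraries with Apoc3 and in 18.02% of the 172 without, with median totals of 28899 and 29148. Within WT GFPhi the shares were 69.2% of 13 and 27.1% of 48, where libraries with Apoc3 were deeper, with median totals of 56931 and 32565. They were 33.3% of 3 and 6.67% of 45 in KO GFPhi, and 40% of 5 and 29.4% of 34 in WT GFPlo. In KO GFPlo the direction was opposite, with 0% of 7 and 11.1% of 45. Apoa1 and Apoc3, which lie next to each other, shared 0 libraries, but Apoa1 was in only 4, too few to read this. By set over all groups the contrast was smaller, with Apoa4 in 50% of 16 sets with Apoc3 and in 39.5% of 38 without. Within WT GFPhi, Apoa4 was in 100% of 5 sets with Apoc3 and in 45.5% of 11 without. Apoc2, on another chromosome, was found with Apoc3 as often as Apoa4 was: in 46.4% of libraries with Apoc3 and 9.30% without, and in 56.3% and 21.1% of sets. Apoa2, on chromosome 1, was in 30.4% of the 23 sets with Apoa4 and in 3.23% of the 31 without, but sets with Apoa4 were also deeper, with median totals of 207659 and 111643.

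**Figure D3:**
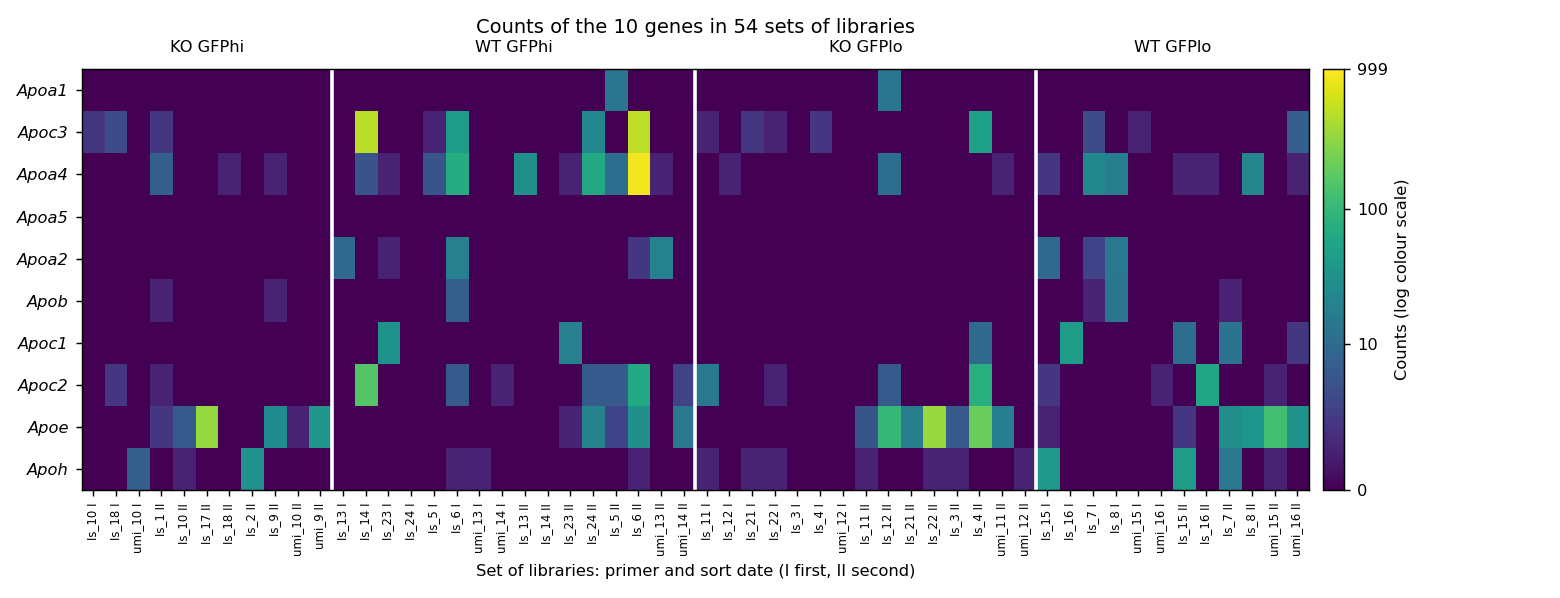
Each column is 1 of the 54 sets of libraries (primer and sort date, I first and II second), ordered by group, each row 1 gene, and colour gives the summed counts on a log scale. WT GFPhi sets ls_14 I and ls_6 II hold most Apoc3, ls_6 II most Apoa4, Apoa1 is in ls_12 II and ls_5 II alone, and Apoe fills sets of the second date.

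Apoa2, the second protein of high density lipoprotein, had 0 counts in the 48 KO GFPhi libraries and 52 in WT GFPhi, and 0 in the 52 KO GFPlo libraries and 28 in WT GFPlo. With the KO groups set at 3 counts each, Apoa2 was at least 15.1-fold lower in KO GFPhi and at least 7.63-fold lower in KO GFPlo. The WT levels were 14.99 CPM (11.2 to 19.7) in GFPhi and 12.4 (8.23 to 17.9) in GFPlo. It was counted in 0 of 11 KO GFPhi and 5 of 16 WT GFPhi sets, and in 0 of 15 KO GFPlo and 3 of 12 WT GFPlo sets. No library had more than 19 counts, but 1 library held 19 of the 22 WT GFPhi counts of the second date. On the second date, however, both GFPlo groups were at 0. Of its 14 libraries 4 were leukocyte-marked, and they held 39 of the 80 counts. Without them WT GFPhi had 13.

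Apob, the scaffold of chylomicrons and very low density lipoprotein, was near the floor: 2 counts in KO GFPhi and 7 in WT GFPhi, and 0 in KO GFPlo and 16 in WT GFPlo libraries. KO GFPlo was at least 4.36-fold below the WT GFPlo level of 7.08 CPM (4.05 to 11.5). Set ls_8 of the first date held 14 of the 16 WT counts, and without it 2 remained. The GFPhi pair had under 10 counts and is not read.

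Apoh, or beta2-glycoprotein I, a plasma protein that binds phospholipids, was higher in KO in GFPhi and lower in KO in GFPlo. It had 40 counts in KO GFPhi and 3 in WT GFPhi, and 7 in KO GFPlo and 100 in WT GFPlo libraries. The ratio was 15.4 (4.89 to 77.6) in GFPhi and 0.0857 (0.0336 to 0.183) in GFPlo. In GFPlo it was 0.117 (0.0233 to 0.368) on the first and 0.0680 (0.0179 to 0.183) on the second date, and in GFPhi 4.79 (0.912 to 47.3) on the first. The KO GFPhi counts came from 3 sets, and ls_2 of the second date gave 32 of the 40. Without it the GFPhi ratio was 3.23 (0.775 to 18.9), and without leukocyte-marked libraries it was 2.94 (0.587 to 28.4), from 8 counts in KO and 2 in WT. In KO GFPlo 7 libraries, each in a set of its own, had 1 count each, whereas in WT GFPlo 12 libraries had up to 33, most of them from primer ls_15 with 41 counts on the first date and 43 on the second.

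The chromosome 7 genes did not move together. Apoc2, the activator of lipoprotein lipase, had 3 counts in KO GFPhi and 245 in WT GFPhi, and 99 in KO GFPlo and 62 in WT GFPlo libraries. Its ratio was 0.0141 (0.00289 to 0.0417) in GFPhi, and 1.95 (1.41 to 2.73) in GFPlo, where it was 8.56 (2.45 to 45.8) on the first and 1.41 (0.998 to 2.00) on the second date. Sets ls_14 of the first date, in WT GFPhi, and ls_4 of the second, in KO GFPlo, held 155 and 77 counts, the same sets that were high for Apoc3. Without set ls_4 the GFPlo ratio was 0.456 (0.267 to 0.753), and without set ls_16 of the second date, which held 58 of the 62 WT counts, it was 25.9 (9.82 to 97.1), so its direction rests on single sets. Without leukocyte-marked libraries it was 51.004 (16.9 to 252), from 84 counts in KO and 3 in WT. Apoc1, which slows the uptake of remnant particles, had 0 counts in KO GFPhi and 52 in WT GFPhi, and 10 in KO GFPlo and 70 in WT GFPlo libraries. In GFPhi it was at least 15.1-fold lower in KO, but all 52 WT counts were of primer ls_23 and 50 of them lay in leukocyte-marked libraries. Without those libraries KO GFPhi had 0 counts and WT GFPhi 2, which gives no ratio. In GFPlo the ratio was 0.175 (0.0803 to 0.341). Its counts came from 7 of 54 sets, and 6 of these held at least 10. Set ls_4 of the second date held all 10 counts of KO GFPlo, and without set ls_16 of the first date the GFPlo ratio was 0.364 (0.157 to 0.780).

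Apoe, the ligand by which remnant particles are taken up into liver cells, is made by many cell types, macrophages included, and was the member with most counts. It had 408 counts in KO GFPhi and 71 in WT GFPhi, and 689 in KO GFPlo and 225 in WT GFPlo libraries. The levels were 135 CPM (123 to 149) in KO GFPhi against 20.5 (15.99 to 25.8) in WT GFPhi, and 373 (346 to 402) in KO GFPlo against 99.5 (86.9 to 113) in WT GFPlo. Apoe was thus the only member higher in KO in both gates, with a ratio of 6.62 (5.13 to 8.64) in GFPhi and 3.75 (3.22 to 4.38) in GFPlo. The order of the levels was KO GFPlo, KO GFPhi, WT GFPlo and WT GFPhi, and no interval overlapped the next. Between gates it was lower in GFPhi than in GFPlo, with a ratio of 0.206 (0.155 to 0.270) in WT and 0.363 (0.321 to 0.411) in KO libraries.

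The share of libraries with Apoe differed less than the level. It was counted in 16 of 48 KO GFPhi libraries, 33.3% (20.4 to 48.4), and 14 of 61 WT GFPhi libraries, 22.95% (13.2 to 35.5), and in 18 of 52 KO GFPlo libraries, 34.6% (21.97 to 49.1), and 15 of 39 WT GFPlo libraries, 38.5% (23.4 to 55.4). Where it was found the highest count was 203 in KO GFPhi against 23 in WT GFPhi, and 185 in KO GFPlo against 99 in WT GFPlo. The GFPhi ratio rests on set ls_17 of the second date, which held 336 of the 408 KO counts: without it, the ratio was 1.27 (0.905 to 1.794), and without set ls_6 of the second date, with 31 of the 71 WT counts, it was 11.04 (7.97 to 15.7). In GFPlo the ratio was 2.38 (2.01 to 2.83) without set ls_22 of the second date, which held 342 counts, and 7.15 (5.80 to 8.88) without set umi_15 of the second date, which held 122 of the 225 WT counts. By set, Apoe was in 6 of 11 KO GFPhi and 5 of 16 WT GFPhi sets, and in 7 of 15 KO GFPlo and 6 of 12 WT GFPlo sets.

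Apoe was nearly absent from the first sort date. It had 1 count in the 72 libraries of the first date and 1392 in the 128 of the second, although the first date gave 35.7% of all counts. Among 2649 genes with 0.5 to 2 times the counts of Apoe, itself included, it was the only one with at most 1 count on the first date, and the median gene had 35.98% there. On the second date 62 of 128 libraries had it, and the ratio of KO to WT was 6.12 in GFPhi and 3.08 in GFPlo. Of the other members, Apoa1 was counted on the second date alone, Apoa5 on neither and the rest on both. Apoc3 had 555 and 577 counts, Apoc2 183 and 226, and Apoa2 58 and 22 on the first and second date. What set the dates apart was not tested.

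Macrophage markers were far higher in libraries with Apoe than in those without in KO GFPlo, where a single set held most marker counts. The 14 markers summed to 157 CPM in KO GFPhi and 559.7 CPM in WT GFPhi, and to 679.9 CPM in KO GFPlo and 457 CPM in WT GFPlo libraries. Single libraries ranged from 0 to 1392 CPM in KO GFPhi and 4389 CPM in WT GFPhi, and to 10871 CPM in KO GFPlo and 4804 CPM in WT GFPlo. Mrc1, Timd4 and Mertk were at 0 in KO GFPlo, and Lyz2, a lysozyme gene, gave 989 of the 1256 macrophage counts there. Within KO GFPlo the markers summed to 1295 CPM in libraries with Apoe and 126 CPM in those without. In KO GFPhi these values were 219 and 118 CPM, in WT GFPhi 290 and 686 CPM, and in WT GFPlo 393 and 487 CPM. On the second date alone, where Apoe was found, libraries with Apoe and those without had 219 and 197 CPM in KO GFPhi and 290 and 324 CPM in WT GFPhi, and 1295 and 85.1 CPM in KO GFPlo and 357 and 243 CPM in WT GFPlo. Set ls_22 of the second date had 1042 of the 1256 macrophage counts of KO GFPlo, or 2733 CPM in the set. The KO GFPlo contrast was not computed without this set. Set ls_22 had more leukocyte (2985) than epithelial (625) marker counts. Set ls_17 of the second date, in KO GFPhi, had fewer leukocyte (366) than epithelial (2688) marker counts. Its 177 macrophage counts came to 705 CPM in the set, against 157 CPM in all KO GFPhi libraries. Without leukocyte-marked libraries the GFPlo ratio of Apoe was 2.92 (2.44 to 3.50), from 324 counts in KO and 202 in WT libraries. The part of macrophage RNA in the Apoe levels of either gate was otherwise not tested.

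**Figure D4:**
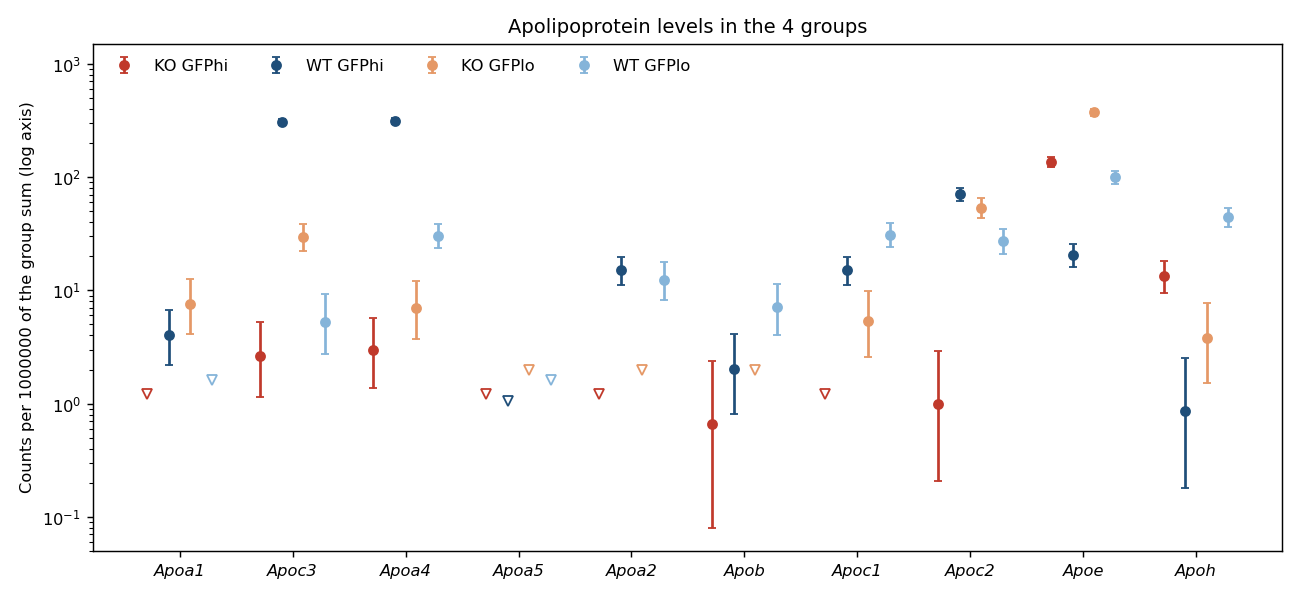
Points are the levels of the 10 genes in KO GFPhi, WT GFPhi, KO GFPlo and WT GFPlo (left to right within a gene) in counts per 1000000 on a log axis, bars are 95% counting intervals, and open triangles mark the upper limit of a group with 0 counts. Apoc3 and Apoa4 are at 2.66 and 2.99 CPM in KO GFPhi and at 305 and 311 CPM in WT GFPhi, Apoa2 has triangles in both KO groups, and Apoe is higher in KO than in WT in both gates.

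The members were then read against all genes. In the GFPhi pair 8 members reached 10 counts, and 6 of them were at least 2-fold lower in KO, where 29.1% of 15033 genes were, and 2 (Apoe and Apoh) at least 2-fold higher, where 20% were. Their median log2 ratio of KO to WT was -6.22, and that of all genes -0.13. In GFPlo, 5 of 9 were at least 2-fold lower in KO (27.3% of 13882 genes) and 3 at least 2-fold higher (23.6%), with a median log2 ratio of -2.07, against -0.05 for all genes. Between gates in WT, 4 of 9 were at least 2-fold lower in GFPhi (24.2% of 15064) and 4 at least 2-fold higher (27.6%), and in KO, 6 of 7 were lower (26.1% of 13898) and 1, Apoh, higher (24.3%). Shared KO and WT libraries link these comparisons, and members counted through the group where they are high had to differ.

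Other apolipoproteins were lower in KO or within 2-fold in GFPhi. Of 17, 7 had at least 10 counts in GFPhi, and 4 were at least 2-fold lower in KO and 0 higher, with a median log2 ratio of -1.26. In GFPlo, 4 of 9 were lower and 2 higher (median -0.54). For all genes these shares were 29.1% lower and 20% higher in GFPhi, and 27.3% and 23.6% in GFPlo. Clu (clusterin), with most counts, was 124 CPM in KO GFPhi and 222 in WT GFPhi, and 157 in KO GFPlo and 560.0 in WT GFPlo libraries. Apod, a lipocalin, was 7.30 CPM in KO GFPhi against 269.6 in WT GFPhi, and 6.496 in KO GFPlo against 105 in WT GFPlo, lower in KO in both gates like Apoa4. Apoc4, which lies between Apoc2 and Apoc1, had 0 counts in all groups.

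Of the genes that load and export lipoproteins most were within 2-fold in GFPhi. Of 14 assembly and secretion genes, 13 had at least 10 counts in GFPhi, 4 were at least 2-fold lower in KO and 0 higher, and the median log2 ratio was -0.55. In GFPlo, 2 of 11 were lower and 1 higher (median 0.09). Among all genes 29.1% were lower and 20% higher in GFPhi, and 27.3% and 23.6% in GFPlo. Surf4, a cargo receptor of the endoplasmic reticulum, had most counts and was 294 CPM in KO GFPhi and 268 CPM in WT GFPhi libraries. Mttp, which loads lipid onto Apob, was 18.3 CPM in KO GFPhi and 21.9 in WT GFPhi, and 11.9 in KO GFPlo and 50.4 in WT GFPlo libraries. Creb3l3, a liver and gut transcription factor placed in this list, was 1 of the 4 lower in KO GFPhi. It had 0 counts in KO GFPhi and 74 in WT GFPhi, and 16 in KO GFPlo and 0 in WT GFPlo libraries. The others were Fitm2 (1 count in KO GFPhi and 68 in WT GFPhi), Dgat1 (2 and 62) and Ctage5 (195 and 457). All 4 were named after their values were seen.

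Of 13 receptor and uptake genes, 12 had at least 10 counts in GFPhi, with 5 at least 2-fold lower in KO, 2 higher and a median log2 ratio of -0.85. In GFPlo, 4 of 11 were lower and 3 higher (median -0.26). Lsr, a lipoprotein receptor of epithelia, had most counts, 68.1 CPM in KO GFPhi against 124 CPM in WT GFPhi, and 73.1 CPM in KO GFPlo against 149 CPM in WT GFPlo. Of 14 genes of lipolysis and remodelling in plasma, 10 had at least 10 counts in GFPhi, with 0 at least 2-fold lower in KO and 3 higher, and a median of -0.39. In GFPlo, 1 of 10 was lower and 1 higher (median 0.22). Both lists stand beside all-gene shares of 29.1% lower and 20% higher in GFPhi, and 27.3% and 23.6% in GFPlo. Pltp, the phospholipid transfer protein, had most counts, 35.9 CPM in KO GFPhi against 58.5 in WT GFPhi, and 99.6 in KO GFPlo against 125 in WT GFPlo.

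Transcription factors of these genes in liver and gut were also counted in MECs. Of 24, 17 had at least 10 counts in GFPhi, with 5 at least 2-fold lower in KO, 2 higher, 10 between and a median log2 ratio of -0.20. In GFPlo, 6 of 15 were lower and 2 higher (median -0.29). The shares of all genes were 29.1% lower and 20% higher in GFPhi, and 27.3% and 23.6% in GFPlo. The 5 of 17 lower in GFPhi thus lay near the share of all genes. Cdx1, an intestinal homeobox factor, was 508 CPM in KO GFPhi and 210.2 CPM in WT GFPhi libraries. Cdx1 is also in the list of enterocyte products below, so it was counted in both lists. Hnf4g was 124 CPM in KO GFPhi and 105 CPM in WT GFPhi, whereas Hnf4a, its close relative and a main regulator of the chromosome 9 cluster in liver, had 0 counts in KO GFPhi and 1 in WT GFPhi, and 2 in KO GFPlo and 16 in WT GFPlo libraries. Of 11 other hepatocyte products with at least 10 counts in GFPhi, 6 were at least 2-fold lower in KO and 1 higher (median log2 ratio -4.23), and of 13 enterocyte products 8 were lower and 2 higher (median -2.02). In GFPlo, 5 of 10 hepatocyte products were lower and 2 higher (median -1.07), and 6 of 13 enterocyte products lower and 3 higher (median -0.33). Fgb, the beta chain of fibrinogen, was 1.66 CPM in KO GFPhi against 125 CPM in WT GFPhi. Fabp2, the fatty acid carrier of enterocytes, had 1 count in KO GFPhi and 246 in WT GFPhi. All 263 Fabp2 counts were of the first date.

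The coding genes beside the chromosome 9 cluster had log2 ratios nearer to 0 in GFPhi than its members. Within 100 kb of the chromosome 9 cluster lie 4 other coding genes in the table, and 3 had at least 10 counts in GFPhi, with log2 ratios of KO to WT of -0.73 for Sik3, a kinase, -1.58 for Zfp259 (Zpr1) and -1.83 for 4931429L15Rik. Those of Apoa1, Apoc3 and Apoa4, between Sik3 and Zfp259, were -4.65, -6.76 and -6.62. The Apoa1 value rests on 14 WT counts of primer ls_5, which cannot be told apart from those of primer ls_12 in KO GFPlo. In GFPlo the neighbours were not all nearer to 0 than Apoc3 and Apoa4. There 3 of the 4 neighbours were at least 2-fold lower in KO (27.3% of all genes were), with a median log2 ratio of -2.19. The log2 ratios of Zfp259 (-3.05) and Bud13 (-3.50) were farther from 0 than those of Apoc3 (2.44) and Apoa4 (-2.07). Within 100 kb of the Apoe cluster 7 of 10 coding neighbours had enough counts in GFPhi, with a median of 0.42 and a range of -5.38 (Pvrl2, or Nectin2, an adhesion molecule) to 1.05 (Relb, a subunit of NF-kappaB). Tomm40, the nearest neighbour of Apoe, was 4.65 CPM in KO GFPhi against 3.46 in WT GFPhi, and 20.6 CPM in KO GFPlo against 4.42 in WT GFPlo.

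**Figure D5:**
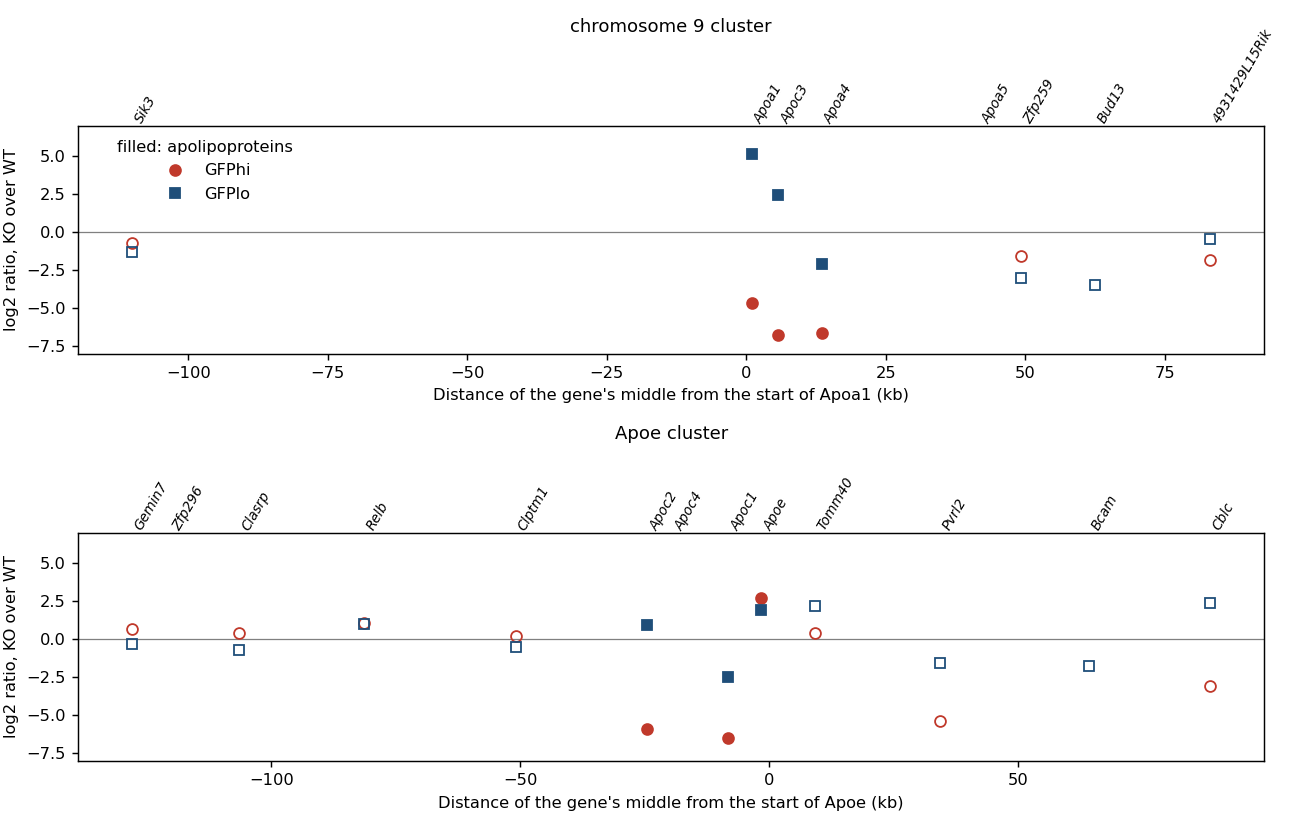
The log2 ratio of KO to WT is plotted for coding genes by the distance of each gene's middle from the start of Apoa1 (top) or Apoe (bottom) in kb, in GFPhi (circles) and GFPlo (squares), where the pair of groups reached 10 counts. Filled marks of the chromosome 9 cluster lie at -4.65 to -6.76 in GFPhi, below all open marks beside them, and in GFPlo at 5.15, 2.44 and -2.07. The Apoa1 marks (-4.65 and 5.15) rest on libraries of primers ls_5 and ls_12 with equal counts, whose group cannot be told apart.

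The genes most like Apoe over the 200 libraries, by the Pearson correlation of log2(CPM + 1), were Krt5 (r = 0.586), a keratin of medullary epithelium, Fxyd3 (0.541), Rtp4 (0.536), Ccl21a (0.530), a chemokine of the same epithelium, and Tgfbi (0.517). Over the 54 sets the values were 0.816, 0.646, 0.605, 0.736 and 0.695. All 5 were also weighted to the second date, with Krt5 at 63 counts on the first and 2430 on the second and Tgfbi at 4 and 293. Within the second date alone r was 0.493 for Krt5 and 0.549 for Rtp4 over 128 libraries. For Apoa4, the cluster gene in most libraries, the highest were Dnalc4 (0.408), Krt4 (0.405), Sohlh1 (0.400), Mfsd6l (0.398) and Cela3b (0.395), each counted together with Apoa4 in 8 to 15 libraries. Apoc3 had 0.318 with Apoa4, and Apoe had -0.05. These are descriptions over libraries that share depth, date and primer.

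Aire transcript was counted in 161 of the 200 libraries, and in 23 of the 28 with Apoc3, 38 of the 43 with Apoa4 and 48 of the 63 with Apoe. In WT GFPhi, 13 of 13 libraries with Apoc3 and 22 of 22 with Apoa4 had an Aire count, against 44 of 48 without Apoc3 and 35 of 39 without Apoa4. There, libraries with the gene were deeper than those without. Median totals were 56931 and 32565 for Apoc3 and 55948 and 30632 for Apoa4. In WT GFPlo, 2 of 5 libraries with Apoc3 had an Aire count, against 24 of 34 without, and 9 of 12 with Apoa4, against 17 of 27 without. Of the WT GFPlo libraries with Apoe, 8 of 15 had an Aire count, against 18 of 24 without.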

How the data were processed

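The counts that the authors deposited are whole numbers, 1 per gene and library, with no scaling. Build mm10 and the tools HTSeq, SAMtools 0.1.19, Picard 1.79, TopHat and TopHat2 are listed in the submitters' processing notes, with no role or order. Per the labels' protocols, RNA was copied with oligo-dT primers and amplified by in vitro transcription. The deposited metadata hold counts of identifiers and unique reads, the flow cytometer's GFP intensity and a sort date. A library's total exceeded its identifier count in 40 libraries and its unique reads in 0, so counts were read as tags, though whether identifiers were collapsed is not given in the sources used here.

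All 200 libraries were used, with no filter on cells or doublets. Counts were summed per group and divided by the group's sum, so that each group is 1 sample and no test was run. The design fixed levels, ratios and shares in place of tests. Levels carry exact Poisson, ratios exact conditional binomial (Clopper-Pearson) and shares exact binomial 95% intervals. Log2 ratios had 0.5 count added, a fold against 0 used 3 counts over the group, and a gene was called where it differed by 2-fold or more and had 10 or more counts in the pair. The ratio step was tested on simulated data. Positions came from GENCODE M21 and promoters from RefSeq. Markers and lists are described by counts and medians. TMM factors came from edgeR 4.0.16 in R 4.3.3, and the rest was done with scipy 1.17.1, pandas 2.3.3 and numpy 2.4.6 under Python 3.11.15. Alternatives were each date, each pool left out, the highest library, leukocyte-marked libraries, weighting, primer kind, depth and scaling. Those on primer sets were chosen after seeing the data.

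The members, lists, markers and alternatives were chosen with earlier results of these data known. Named beside the members are each list's genes with most counts, coding neighbours within 100 kb and the 5 genes most like Apoe and Apoa4 among those in at least 10 libraries. Apod, Apoc4, Mttp, Creb3l3, Fitm2, Dgat1, Ctage5, Hnf4g, Hnf4a and Fabp2 were named after their values were seen. Some genes of these lists are not reported here.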

Additional observations from a re-analysis of the deposited data

Results flagged for a closer look

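For 4 members the log2 ratio of KO to WT had opposite signs in the 2 gates, with counting intervals that exclude no change on both sides. Each group is 1 sample, so the difference between the gates was not tested. For Apoc3 it was -6.76 in GFPhi and 2.44 in GFPlo, where 49 of the 55 KO counts were of 1 set of libraries and the ratio without it was 0.643 (0.198 to 1.85). For Apoc2 it was -5.93 in GFPhi and 0.96 in GFPlo, where 77 of the 99 KO counts were of the same set and the ratio without it was 0.456 (0.267 to 0.753). For Apoh it was 3.74 in GFPhi, where 32 of the 40 KO counts were of 1 set and the ratio without it was 3.23 (0.775 to 18.9), and -3.45 in GFPlo. For Apoa1 it was -4.65 in GFPhi and 5.15 in GFPlo, and both values rest on the library pairs of primers ls_12 and ls_5 that have equal counts of it.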

How the results depend on the processing

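For the cluster sum in GFPhi, the KO to WT ratio of 0.00910 ran from 0.00812 to 0.0129 with each pool left out, and was 0.0230 without the library with most counts and 0.0241 without the set with most counts. In GFPlo, the ratio of 1.24 was below 1 on the first date (0.229), as a mean of per-library levels (0.557), with 1 library per set (0.860), without primers ls_5 and ls_12 (0.998) and without the top set (0.524). It was 2.35 on the second date, 1.85 without the top library, 1.80 without leukocyte-marked libraries and 1.78 without the 40 shallowest libraries, and 0.774 to 2.59 with each pool left out. Between gates in WT, the ratio of 17.3 was 11.8 and 24.4 by date, 6.86 without the top library, 3.98 as a mean of levels, 33.8 with 1 library per set, 6.54 without the top set and 7.21 to 35.9 without single pools. In KO, 0.127 was 0.682 on the first date, 0.233 with 1 library per set, 0.301 without the top set and 0.0853 to 0.252 without single pools.

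For Apoe, KO to WT in GFPhi (6.62) was 3.39 without the top library, 8.67 with 1 library per set, 1.27 without the top set and 5.28 to 7.29 without single pools. In GFPlo (3.75) it was 3.08 on the second date, 2.83 without the top library, 2.92 without leukocyte-marked libraries, 2.04 as a mean of levels, 11.7 with ls primers alone, 5.36 with 1 library per set, 2.38 without the top set and 3.17 to 5.37 without single pools. GFPhi to GFPlo in WT (0.206) was 0.354 without the top library, 0.392 without the top set and 0.188 to 0.266 without single pools. In KO (0.363) it was 0.186 without the top library, 0.439 without leukocyte-marked libraries, 0.447 as a mean of levels, 0.572 without the top set and 0.262 to 0.492 without single pools. The first date gave no Apoe ratio, with at most 1 count in a pair.

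The difference in the share of GFPhi libraries with a cluster gene, -31.8 points, ran from -35.3 to -29.4 without single pools. It was -21.3 on the first date, -38.1 with 1 library per set and between these under 6 other alternatives, and -17.0 by set. The 14 libraries with 2 or more cluster genes were 6 and 8 on the first and second date, 8 at 2 counts or more, 7 at 3 counts or more, 9 after thinning, 7 with 1 library per set and 10 to 14 without single pools. Where a value moved, the cause was not tested beyond what was left out. No paired analysis was possible because replicate numbers only name cells and each group is 1 sample, and the ratios within each sort date are given in its place.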
